A study of Mus musculus with 12 samples.

Results

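The genes described here encode the constitutive proteasome and the factors that assemble it. They are the rows whose gene symbol is *Psma1* to *Psma7*, *Psmb1* to *Psmb4*, *Psmc1* to *Psmc6*, any numbered *Psmd*, *Psmf1*, or *Psmg1* to *Psmg4*. This name rule, which used no measured value, found 36 of the 23022 listed genes. All 36 passed the filter of at least 1 TPM, a level scaled for transcript length and for the library total, in at least 3 libraries, as did 11663 listed genes in all. By structure they fell into 7 subunits of the core alpha ring, 4 of the core beta ring, 6 ATPases of the base, 3 other base subunits, 8 lid subunits, 3 chaperones of base assembly, 4 chaperones of core assembly and 1 inhibitor.

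The proteasome is the large protease that degrades ubiquitin-tagged proteins in the cytosol and nucleus, and its peptide products are the main supply of peptides presented on MHC Class I. Its barrel-shaped core has outer rings of alpha subunits, which form the gate and the docking surface, and inner rings of beta subunits, some of which hold the protease sites. The regulatory particle caps the core: its base carries a ring of ATPases that unfold the substrate, and its lid holds the enzyme that removes ubiquitin. Interferon gamma (IFNγ), a cytokine made by T cells and NK cells, is known for switching on alternative catalytic subunits (*Psmb8*, *Psmb9*, *Psmb10*) and the activator genes *Psme1* and *Psme2*, while the subunits described here are made by cells with or without it.

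RNA-seq was done on B16-F10 cells, a mouse melanoma line, that expressed Cas9. Cells with paired guide RNAs against *Mbnl1* and *Mbnl2* (DKO) were compared with cells of the control guides (NTC), each left untreated or treated with 1 ng/mL IFNγ for 24 h, with 3 libraries for each of the 4 conditions and 12 in all. *Mbnl1* and *Mbnl2* encode RNA-binding proteins that act on splicing, polyadenylation and RNA localization. All libraries share the Cas9 line, and DKO cells were an edited pool rather than 1 clone, so unedited cells and residual MBNL protein can remain. The labels do not say whether libraries of a condition came from separate cultures, so that p-values measure the spread between these libraries, which may be technical. As TPM do not keep the read depth, it is unknown here, and no counting interval is given. Because this is bulk RNA, a lower level in all cells and a smaller share of cells with the RNA cannot be told apart.

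RNA of the targeted genes was lower but present in DKO cells, by limma. The log2 difference of *Mbnl1* was -0.41 without and -0.47 with IFNγ (adjusted p = 2.54e-05 and 8.12e-06), that of *Mbnl2* -0.20 and -0.23, and that of *Mbnl3*, which was not targeted, 0.41 and 0.28. Transcripts with indels are still counted, so these values do not measure editing. The 7 melanocyte genes *Tyr*, *Tyrp1*, *Dct*, *Pmel*, *Mlana*, *Mitf* and *Sox10* were all detected, and 7 of 7 were lower in DKO than in NTC cells without IFNγ and 6 of 7 with it; their part in the results below was not tested. Of the markers of other cells, *Ptprc*, *Cd3e*, *Cd8a*, *Cdh5*, *Dcn*, *Krt5* and *Krt14* were listed at 0 in 12 libraries, and *Itgam*, *Pecam1* and *Pdgfra* did not exceed 1.33 TPM. Summed TPM over the listed genes was 844190 to 860270 in untreated and 866880 to 874610 in treated NTC libraries, which did not overlap. It was lower in DKO libraries, at 818270 to 826280 in untreated and 805780 to 827190 in treated ones. The effect of a scaling to equal totals is therefore given below for the members. It is not given for the other genes named, so their differences between DKO and NTC cells stand without it.

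Promoter sequence was taken from RefSeq (GRCm38.p6), which held 32 promoters of 30 of the 36 genes, each from 250 bases before the annotated start to 50 after it. Short motifs were searched on both strands. The interferon-stimulated response element, spelled GAAA, NN and GAAA in a row, where N is any base, a site for interferon regulatory factors, was found in 4 of 32 promoters (12.5%, against 3.44% of all 32851 promoters), namely those of *Psmb3*, *Psmd4*, *Psmd9* and *Psmg4*. None of these 4 genes was among the members that rose with IFNγ in NTC cells, described below. None of the 8 alpha ring promoters held the element. The gamma-activated site TTCNNNGAA, a site for STAT dimers, was found in 2 promoters (6.25% against 8.3%), and the antioxidant response element TGANNNNGC, a site for NRF family factors, in 17 (53.1% against 41.3%). The ETS motif CCGGAAG was found in 13 promoters (40.6% against 8.86%) and the NF-Y motif CCAAT in 11 (34.4% against 37.4%), the latter in 5 of 8 alpha ring promoters. Among the alpha ring genes, *Psma4* and *Psma5* held no CCAAT and rose with IFNγ in NTC cells. *Psma7* held it and was not among those that rose. A match says only that these letters occur in the window. The 250 bases before the start are shown for 3 alpha ring genes that rose with IFNγ in NTC cells, for *Psmc6* and *Psmd12*, which differed between DKO and NTC cells in opposite directions, and for the inducible *Psmb8* as a contrast. Capitals mark every match to the 5 motifs on either strand: CCAAT in the 3 alpha ring genes, the antioxidant response element and the ETS motif in *Psmc6* and *Psmd12*, and the gamma-activated site in *Psmb8*. That site does not typify the inducible genes. Of the 6 promoters of the 5 inducible genes, only that of *Psmb8* held it (16.7%). Only that of *Psme1* held the interferon-stimulated response element (16.7%).
Psma1, chr7:114276117-114276366, minus strand: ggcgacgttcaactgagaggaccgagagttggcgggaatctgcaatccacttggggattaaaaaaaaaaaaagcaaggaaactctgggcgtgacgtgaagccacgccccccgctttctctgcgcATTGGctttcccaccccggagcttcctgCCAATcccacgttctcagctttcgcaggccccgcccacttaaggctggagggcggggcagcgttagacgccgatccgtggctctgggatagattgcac
Psma2, chr13:14612992-14613241, plus strand: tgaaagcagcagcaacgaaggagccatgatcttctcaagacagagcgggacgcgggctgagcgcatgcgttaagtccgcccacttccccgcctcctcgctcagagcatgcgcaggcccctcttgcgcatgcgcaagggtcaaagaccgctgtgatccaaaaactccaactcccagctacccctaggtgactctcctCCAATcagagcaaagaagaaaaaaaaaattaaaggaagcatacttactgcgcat
Psma3, chr12:70974373-70974622, plus strand: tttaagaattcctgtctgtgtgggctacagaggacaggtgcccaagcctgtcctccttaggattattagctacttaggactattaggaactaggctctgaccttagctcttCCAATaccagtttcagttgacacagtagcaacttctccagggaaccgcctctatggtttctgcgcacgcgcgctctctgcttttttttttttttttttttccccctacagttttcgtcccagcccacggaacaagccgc
Psmc6, chr14:45329574-45329823, plus strand: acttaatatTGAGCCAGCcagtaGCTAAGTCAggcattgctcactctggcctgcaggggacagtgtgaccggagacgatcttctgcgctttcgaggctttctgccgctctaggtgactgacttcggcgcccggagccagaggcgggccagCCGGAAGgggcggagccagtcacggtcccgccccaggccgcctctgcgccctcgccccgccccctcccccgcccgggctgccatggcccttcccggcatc
Psmd12, chr11:107479278-107479527, plus strand: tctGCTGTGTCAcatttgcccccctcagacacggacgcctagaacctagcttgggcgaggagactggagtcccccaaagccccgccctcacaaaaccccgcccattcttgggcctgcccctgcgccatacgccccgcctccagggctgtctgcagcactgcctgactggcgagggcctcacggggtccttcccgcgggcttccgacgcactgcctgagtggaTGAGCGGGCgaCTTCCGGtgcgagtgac
Psmb8, chr17:34197945-34198194, plus strand: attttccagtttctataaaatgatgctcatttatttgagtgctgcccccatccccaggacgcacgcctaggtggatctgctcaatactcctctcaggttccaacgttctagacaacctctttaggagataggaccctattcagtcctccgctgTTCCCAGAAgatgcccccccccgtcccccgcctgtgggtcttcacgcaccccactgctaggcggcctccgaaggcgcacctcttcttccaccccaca
Read 5′ to 3′, the *Psma1* window held CCAAT once on each strand, and the *Psmc6* and *Psmd12* windows each held 2 antioxidant response elements and 1 ETS motif. GENCODE places the start of *Psmc6* and of *Psmd12* upstream of the RefSeq start, inside the window shown.

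In untreated NTC cells, levels spanned a 19.3-fold range, from 35.3 TPM for *Psmd10* to 682 TPM for *Psmd8*, with a median of 162 TPM. Alpha ring genes lay closest together among the subunit classes, and chaperones and the inhibitor lay well below every subunit. Alpha ring means ran from 171 TPM for *Psma4* to 268 TPM for *Psma3*, a 1.57-fold range. In the beta ring, *Psmb2* stood at 149.6 TPM and *Psmb4* at 385 TPM. The ATPases ranged from 154 TPM for *Psmc2* to 274 TPM for *Psmc1*. Lid subunits were spread widest, over 7.36-fold, since *Psmd8* stood far above the other 7, whose lowest was *Psmd6* at 91.1, 95.5 and 91.0 TPM. The 3 base chaperones, the 4 core chaperones and *Psmf1* lay between 35.3 and 51.3 TPM. Together the members made up 0.756% ± 0.0059 of the listed TPM in untreated NTC cells, 0.802% ± 0.0075 with IFNγ, 0.758% ± 0.0076 in untreated DKO cells and 0.784% ± 0.0039 with IFNγ (mean ± SD, n = 3 each). *Psmd8* was the highest member in all 4 conditions, as the plot of levels by library shows.

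**Figure D1:**
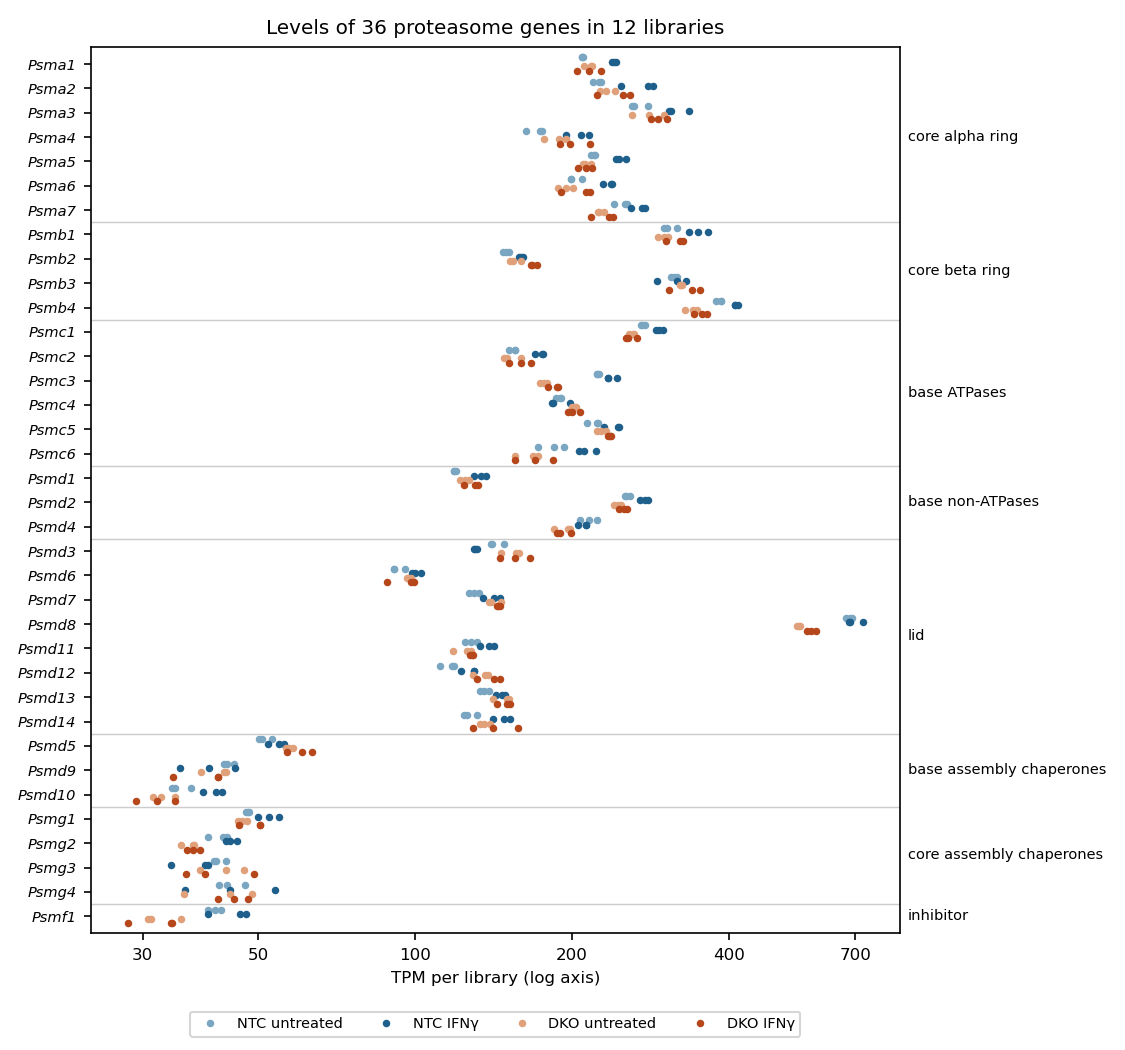
Level of each of the 36 genes in 12 libraries, in TPM on a log axis, with 1 point per library, colored by condition and grouped by structural class. *Psmd8* lies at 541 to 724 TPM in every library, above all others, and the chaperones and *Psmf1* lie at 28.1 to 63.5 TPM.

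With IFNγ, NTC cells held more RNA of many constitutive subunits, by small amounts. Of the 36 members, 14 rose and 0 fell by limma at a Benjamini-Hochberg adjusted p of 0.05, where 12.1% of all tested genes were called (7.31% higher, 4.78% lower). Alpha ring genes led: 6 of 7 rose, against 1 of 4 beta ring genes, 3 of 6 ATPases, 2 of 3 other base subunits, 1 of 8 lid subunits, 1 of 3 base chaperones, 0 of 4 core chaperones and not the inhibitor. The difference was positive in 29 of 36 members, with a median of 0.11 on the log2 scale (7.86%), beside 0.019 over all tested genes. Treated and untreated libraries did not overlap in 25 members that were higher and 2 that were lower with IFNγ, where 21.8% and 14.7% of all tested genes were so placed. All log2 differences are of log2(TPM + 1), given as estimate ± SE, and a p that follows one in the same brackets is limma's adjusted p.

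The alpha subunits shape the entry to the barrel. *Psma1* (ENSMUSG00000030751, chromosome 7, 114264606 to 114276118, minus strand, GRCm38) stood at 210.0, 209.6 and 209.5 TPM in untreated and at 239, 241 and 243 TPM in treated NTC cells. The groups lay far apart beside their spread, and the log2 difference was 0.20 ± 0.039 (SE), or 14.9% (limma adjusted p = 0.0112). *Psma2* went from 227, 225 and 220.1 TPM to 248, 279.6 and 286 TPM (0.27 ± 0.060, adjusted p = 0.0160, together with *Psma4* the largest difference among the members). *Psma3*, which the study itself singled out on these libraries, stood at 279.9, 261 and 263 TPM and at 335, 311 and 308 TPM (0.25 ± 0.055, 0.0167). In both genes every treated library lay above every untreated one. *Psma4*, whose product helps to close the gate, stood at 175, 163 and 174 TPM without and 195, 208 and 216 TPM with IFNγ (0.27 ± 0.057, 0.0139). *Psma5* stood at 218, 222 and 221 TPM and at 243, 255 and 247 TPM (0.17 ± 0.036, 0.0139). RefSeq lists a pseudogene of *Psma5*, and the authors' counting could split reads between the copies. *Psma6* stood at 209, 199 and 199 TPM and at 239, 238 and 229.9 TPM (0.22 ± 0.049, 0.0170). *Psma7* had separate groups as well, at 241, 253 and 255 TPM and 259, 273 and 276 TPM, with a difference of 0.11 ± 0.043 that missed the threshold (adjusted p = 0.105). Summed over the ring, TPM was 1545 ± 14.5 in untreated and 1789.7 ± 27.05 in treated NTC cells (mean ± SD, n = 3).

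None of the 4 beta ring members here holds a protease site. *Psmb1* rose, from 301, 304 and 318 TPM to 336, 365 and 349 TPM (0.18 ± 0.043, adjusted p = 0.0186 by limma). *Psmb4* stood at 379, 387 and 387 TPM and 418, 411 and 412 TPM. *Psmb2*, also singled out by the study, stood at 152, 147 and 149.8 TPM and 158, 159 and 161 TPM. Both had treated libraries above all untreated ones but missed the threshold (adjusted p = 0.0627 and 0.0860). *Psmb3* had a difference of -0.0026 with a 95% interval of -0.12 to 0.11.

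Among the ATPases, which unfold substrates and thread them into the core, *Psmc2*, *Psmc5* and *Psmc6* rose. *Psmc2* stood at 152, 155 and 155 TPM in untreated and at 169.8, 176 and 176 TPM in treated NTC cells (0.17 ± 0.043, adjusted p = 0.0261 by limma). *Psmc6* stood at 193, 172 and 185 TPM and 211, 207 and 223 TPM (0.22 ± 0.063, 0.0400), and *Psmc5* had a difference of 0.12 ± 0.037 (0.0466). Treated libraries lay above untreated ones in all 3. With a trend in GC content and length removed from each library, none of the 3 passed the threshold, with 0.057 (adjusted p = 0.325) for *Psmc2*, 0.084 (adjusted p = 0.186) for *Psmc6* and 0.12 (adjusted p = 0.0519) for *Psmc5*. *Psmc1* lay just outside the threshold (0.11, adjusted p = 0.0507), and *Psmc4* had a difference of -0.0044 (-0.089 to 0.080). In the rest of the base, *Psmd1* and *Psmd2*, the large scaffold subunits, rose. *Psmd1* stood at 119, 119 and 120.0 TPM and 129.7, 134 and 137 TPM (0.16 ± 0.038, adjusted p = 0.0197). *Psmd2* stood at 254, 253 and 258 TPM and 270.2, 276 and 280.3 TPM (0.11 ± 0.033, 0.0462). *Psmd4*, a ubiquitin receptor, had a difference of -0.033 (adjusted p = 0.629).

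In the lid, *Psmd14*, the enzyme that cuts ubiquitin from substrates, was the 1 of 8 members to rise. It stood at 126, 124 and 132 TPM without IFNγ and at 141, 152 and 148 TPM with it in NTC cells (0.21 ± 0.060, adjusted p = 0.0410 by limma). *Psmd6*, *Psmd7*, *Psmd11*, *Psmd12* and *Psmd13*, structural lid subunits, had differences of 0.10 to 0.13 that missed the threshold. *Psmd8* had a difference of 0.031 (-0.041 to 0.10), and *Psmd3* one of -0.13 (adjusted p = 0.0969), with all treated libraries below the untreated ones. Of the chaperones, which bind assembly intermediates and leave the finished particle, *Psmd10* rose, from 37.2, 34.6 and 34.2 TPM to 39.2, 42.6 and 41.5 TPM (0.21 ± 0.065, 0.0498). The core chaperones had differences of -0.15 for *Psmg3* to 0.13 for *Psmg1*, and the inhibitor *Psmf1* one of 0.10, none past the threshold.

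These differences varied with base composition, and the number of calls varied with the libraries left in. Across 11563 genes with a known GC content, the difference in NTC cells had a Spearman correlation of -0.59 with GC content, and across the 36 members one of -0.68. Genes are not independent, and all points share the same libraries. Median GC content was 45.0% in the alpha ring, 49.4% over all members and 49.6% over all tested genes. With a smooth trend in GC content and length removed from each library, 8 members were called (4 of 7 in the alpha ring, 2 of 4 in the beta ring, 1 ATPase and 1 other base subunit), where 5.17% of all genes were. The alpha ring median went from 0.22 to 0.13. Without 1 library the count of members was 2 (NTC untreated replicate 2, or NTC IFNγ replicate 2), 3 (NTC untreated replicate 3), 4 (NTC IFNγ replicate 3) or 9 (NTC untreated replicate 1, or DKO untreated replicate 3), and it was 19 and 16 without DKO IFNγ replicates 2 and 3. Over all genes, the share called moved as well, from 2.74% to 17.3%. Removing the GC trend ended the calls of *Psma1* (0.077, adjusted p = 0.134), *Psma2*, *Psma3*, *Psmc2*, *Psmc5*, *Psmc6*, *Psmd1*, *Psmd10* and *Psmd14*. Of 19 alternatives in all, the call of *Psmc5* was lost in 15, of *Psmd10* in 14, of *Psmd2* in 13, of *Psmd14* in 12, of *Psmc6* in 11, of *Psmc2* in 7, of *Psma2* and *Psmd1* in 5 each, of *Psma3*, *Psma4*, *Psma6* and *Psmb1* in 3 each, of *Psma5* in 2 and of *Psma1* in 1.

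**Figure D2:**
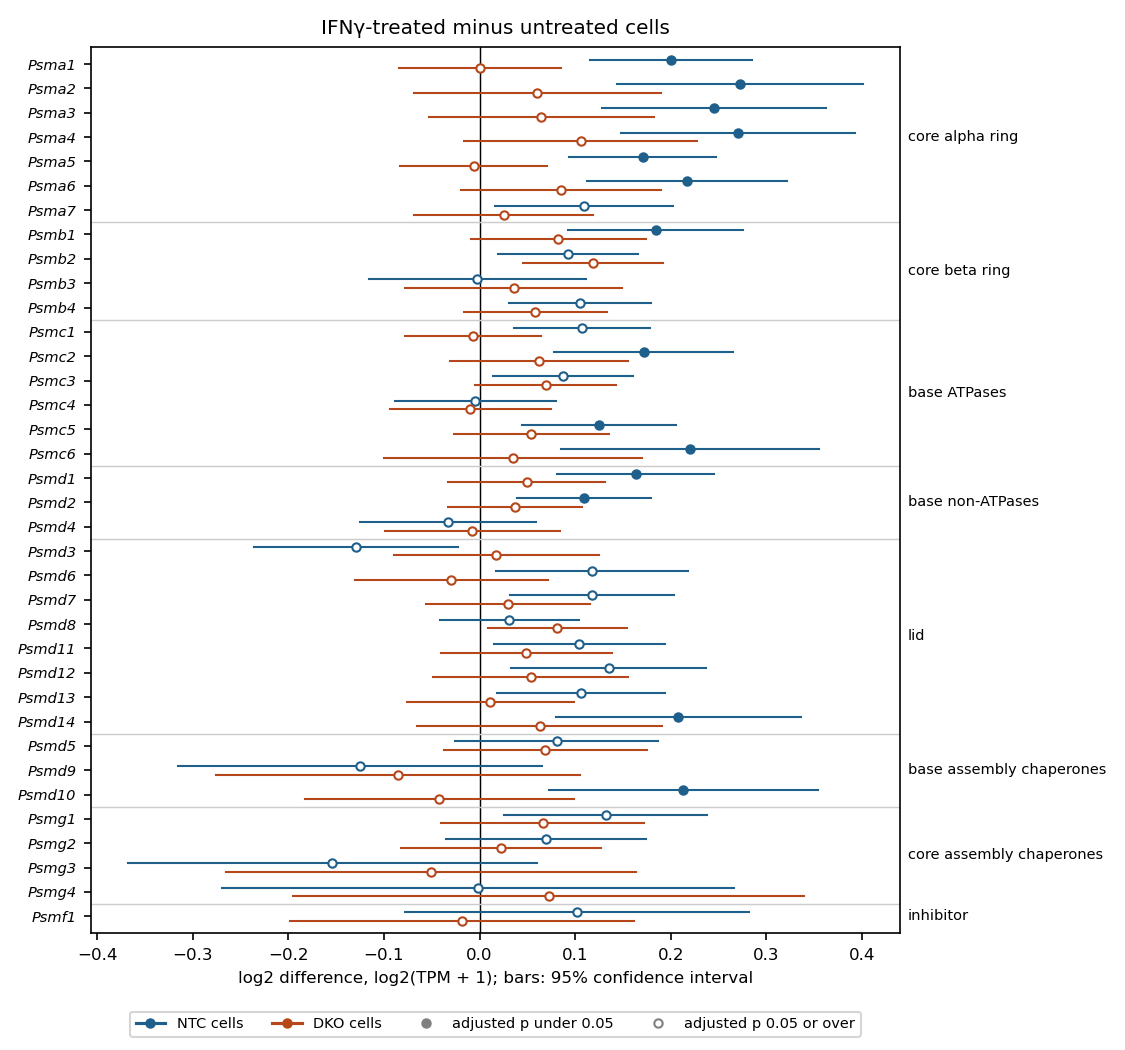
Log2 difference of treated and untreated cells for each of the 36 genes, in NTC cells (blue) and DKO cells (orange), with 95% confidence intervals and filled points where the limma adjusted p is under 0.05. In NTC cells 14 points are filled, 6 of them in the alpha ring, and in DKO cells none is.

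In DKO cells, 0 of 36 members were called with IFNγ by limma, where 0.780% of all tested genes were (0.677% higher, 0.103% lower). At an unadjusted p of 0.05, 2 members passed, *Psmb2* (0.12 ± 0.034 by limma, adjusted p = 0.202) and *Psmd8* (0.081 ± 0.034, adjusted p = 0.452), beside 9.59% of all genes. *Psmb2* stood at 155, 152 and 159 TPM without IFNγ and at 168, 167 and 171 TPM with it in DKO cells, and *Psmd8* at 549, 546 and 541 TPM and 577, 588 and 566 TPM. In both genes the treated libraries lay above the untreated ones. That was so for 4 of 36 members, with 0 placed the other way (9.46% and 5.29% of all genes). The difference was positive in 27 of 36 members, with a median of 0.043, beside 0.0081 over all genes.

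The alpha ring genes overlapped between treated and untreated DKO cells. *Psma1* stood at 211, 218 and 218 TPM without and 215, 205 and 228 TPM with IFNγ (0.00068, 95% interval -0.084 to 0.085). *Psma2* stood at 227, 242 and 233 TPM and 258, 224 and 251 TPM, and *Psma4* at 177, 189 and 195 TPM and 199, 189.8 and 216 TPM. Treated DKO replicate 2 was the lowest of its group in all of these genes and across the ring, whose summed TPM was 1631, 1535 and 1653 in treated and 1502, 1587 and 1570 in untreated DKO libraries.

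Whether the response itself differed between DKO and NTC cells was tested with an interaction term. Of the 36 members, 0 passed the adjusted threshold, where 0.0343% of all genes did (0.00857% higher, 0.0257% lower), and 7 passed an unadjusted p of 0.05 (11.5% of all genes): *Psma1*, *Psma2*, *Psma3*, *Psma5*, *Psmc1*, *Psmd6* and *Psmd10*. For *Psma1* the response in DKO cells was -0.20 from that in NTC cells on the log2 scale (-0.32 to -0.079, limma adjusted p = 0.364), and for *Psmd10* it was -0.26 (-0.45 to -0.056, 0.401). The estimate was negative in 28 of 36 members, in 7 of 7 alpha ring genes (median -0.18) and in 6 of 6 ATPases (median -0.090). Over all genes the median was -0.0063. This estimate had a Spearman correlation of 0.51 with GC content across 11563 genes and of 0.70 across the members. With the GC trend removed, the alpha ring median was -0.078. So a rise seen in NTC cells and not called in DKO cells was not shown to differ between them for any member.

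**Figure D3:**
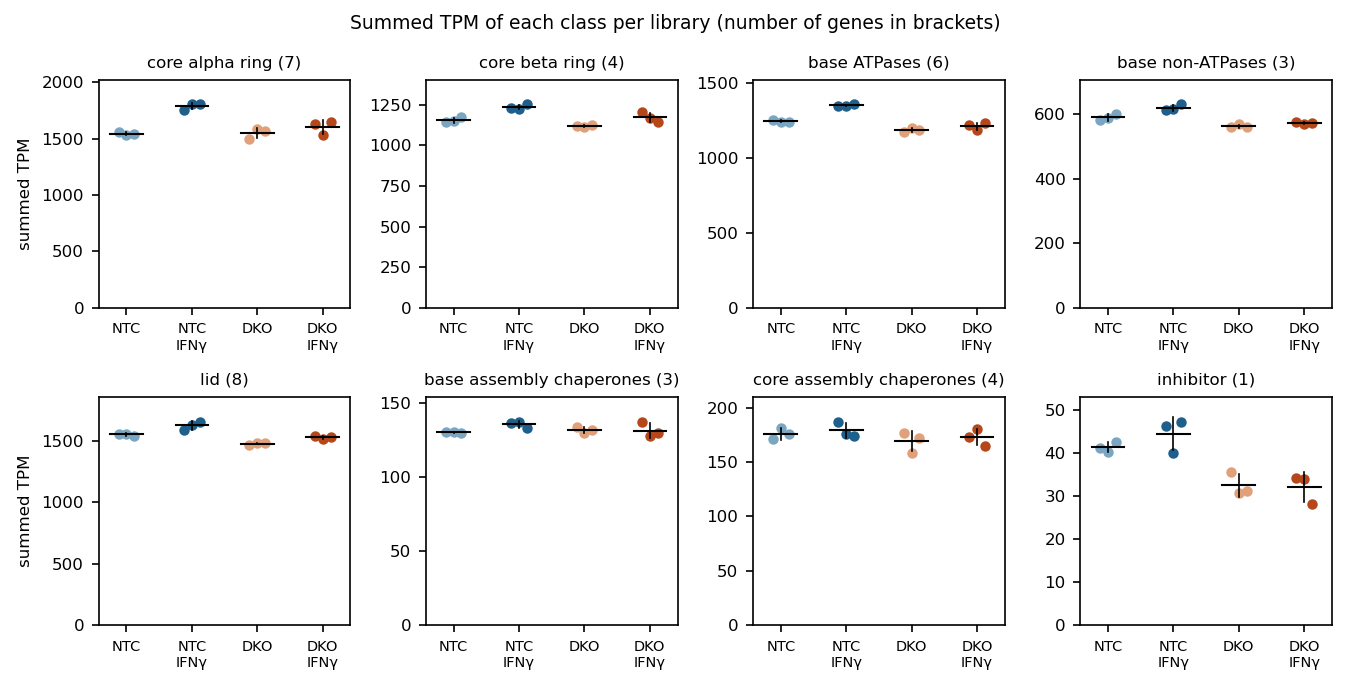
Summed TPM of each structural class in 12 libraries, with 1 point per library, a line at the mean and a bar of 1 SD over 3 libraries; each vertical axis starts at 0. The alpha ring lies at 1533 to 1561 in untreated and 1759 to 1806 in treated NTC libraries, and at 1502 to 1653 in DKO libraries.

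Between untreated DKO and NTC cells, members were called no more often than tested genes in general, some higher and others lower. Of the 36 members, 4 were higher and 7 lower in DKO cells by limma. That was 30.6% of them (11.1% higher, 19.4% lower), where 36.4% of all tested genes were called (17.0% higher, 19.4% lower). Libraries did not overlap in 12 members that were higher and 10 that were lower, where 24.8% and 26.8% of all genes were so placed. The median difference was -0.024, beside -0.0055 over all genes. At an unadjusted p of 0.05, 14 members passed (45.2% of all genes). Among cells treated with IFNγ, 3 members were higher and 16 lower, where 43.3% of all genes were called (19.5% higher, 23.9% lower), and libraries did not overlap in 4 that were higher and 18 that were lower (22.7% and 27.2% of all genes). The median was then -0.11, beside -0.013, and 23 members passed an unadjusted p of 0.05 (50.7% of all genes). The Spearman correlation of the difference with GC content was 0.069 across all genes and -0.19 across the members without IFNγ, and 0.36 and 0.17 with it. Scaling each library to the same total moved the splits to 10 higher and 5 lower without IFNγ and to 8 higher and 10 lower with it. Under that scaling 37.5% and 43.1% of all tested genes were called, and the median over all tested genes became 0.039 and 0.065. With the GC trend removed the splits were 10 and 8, and 7 and 13, where 42.1% and 42.7% of all tested genes were called. With median-ratio scaling the split with IFNγ was 5 and 14, where 42.8% of all tested genes were called. Each call named below kept its direction in all alternatives, except that of *Psmc2* with IFNγ, which was 0.0092 with the GC trend removed.

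*Psmc3*, *Psmd8*, *Psmf1*, *Psmb4* and *Psmg2* were lower in DKO cells both without and with IFNγ, in each of the 19 alternatives tried. *Psmc3* (ENSMUSG00000002102, chromosome 2, 91054009 to 91066369, plus strand) encodes an ATPase whose tail docks into the alpha ring. It stood at 223, 224 and 225 TPM in untreated NTC, 174, 177 and 179 TPM in untreated DKO, 245, 235 and 235 TPM in treated NTC and 188, 187 and 180.4 TPM in treated DKO cells. All DKO libraries lay below all NTC libraries, with log2 differences of -0.34 ± 0.034 and -0.36 ± 0.034 (limma adjusted p = 6.48e-06 and 3.49e-06). Exons of *Psmc3* share 215 bases with *Slc39a13* on the other strand, which did not exceed 16.4 TPM, and the unstranded libraries cannot separate the pair there. *Psmd8* (ENSMUSG00000030591, chromosome 7, 29174188 to 29180701, minus strand), a lid subunit, stood at 689, 671 and 684 TPM in untreated NTC, 549, 546 and 541 TPM in untreated DKO, 682, 685 and 724 TPM in treated NTC and 577, 588 and 566 TPM in treated DKO cells. All 6 DKO libraries lay below all 6 NTC libraries (-0.32 ± 0.034 and -0.27 ± 0.034, adjusted p = 9.70e-06 and 3.48e-05).

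*Psmf1* (ENSMUSG00000032869, chromosome 2, 151715812 to 151744186, minus strand) encodes an adaptor first described as an inhibitor of the core. It stood at 41.3, 40.1 and 42.5 TPM in untreated NTC, 35.5, 30.7 and 31.2 TPM in untreated DKO, 46.2, 40.01 and 47.3 TPM in treated NTC and 34.2, 34.0 and 28.1 TPM in treated DKO cells. This was the largest difference with IFNγ, at -0.46 ± 0.083, and -0.34 ± 0.083 without it (limma adjusted p = 6.68e-04 and 0.00605). *Psmb4* (ENSMUSG00000005779, chromosome 3, 94884093 to 94886961, minus strand) stood at 348, 329.6 and 342 TPM without IFNγ and at 356, 363 and 343 TPM with it in DKO cells, below the NTC libraries given above (-0.18 ± 0.035 and -0.22 ± 0.035, 0.00135 and 2.05e-04). *Psmg2*, a chaperone of alpha ring assembly, stood at 40.03, 43.6 and 42.9 TPM in untreated NTC, 35.5, 37.7 and 37.6 TPM in untreated DKO, 44.1, 45.5 and 43.3 TPM in treated NTC and 38.6, 37.4 and 36.5 TPM in treated DKO cells. Groups were again apart, with differences of -0.19 ± 0.048 and -0.23 ± 0.048 (0.00849 and 0.00174).

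*Psma7* and *Psmd4* completed the members that were lower in both states. *Psma7* stood at 226, 230.4 and 224 TPM without IFNγ and at 239.6, 235 and 218 TPM with it in DKO cells, with differences from NTC cells of -0.14 ± 0.043 and -0.22 ± 0.043 (limma adjusted p = 0.0219 and 0.00109). *Psmd4* stood at 208, 216 and 223 TPM in untreated NTC and 197, 198 and 185 TPM in untreated DKO cells (-0.16 ± 0.043, 0.0113). With IFNγ the values were 213, 205 and 213 TPM and 189.8, 199 and 187 TPM (-0.13 ± 0.043, 0.0239). Scaling to the same total ended the calls of *Psma7* without IFNγ and of *Psmd4* in both states.

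The 4 members that were higher in untreated DKO cells were *Psmd12*, *Psmd7* and *Psmd13* of the lid and the base chaperone *Psmd5*. *Psmd12* (ENSMUSG00000020720, chromosome 11, 107479484 to 107504362, plus strand), a scaffold subunit of the lid, stood at 119, 118 and 112 TPM in untreated NTC and 129, 138 and 136 TPM in untreated DKO cells (0.21 ± 0.047, limma adjusted p = 0.00344). With IFNγ it stood at 123, 130.1 and 130.0 TPM in NTC cells and at 145, 132 and 142 TPM in DKO cells (0.13 ± 0.047, 0.0400). DKO libraries lay above NTC libraries in both states. *Psmd5* stood at 50.1, 50.8 and 53.2 TPM in untreated NTC, 58.3, 56.7 and 57.4 TPM in untreated DKO, 52.1, 54.8 and 56.1 TPM in treated NTC and 60.8, 56.8 and 63.5 TPM in treated DKO cells (0.16 ± 0.049 and 0.15 ± 0.049, 0.0215 and 0.0267). Its DKO libraries, too, lay above the NTC libraries in both states. *Psmd7*, the partner of *Psmd14* in the lid, stood at 129.6, 133 and 127 TPM in untreated NTC and 146, 140.1 and 138 TPM in untreated DKO cells (0.13 ± 0.040, 0.0246). *Psmd13* stood at 136, 139 and 133 TPM and 141, 152 and 150.01 TPM (0.12 ± 0.041, 0.0371). Exons of *Psmd13* share 342 bases with *Sirt3* on the other strand, which did not exceed 10.6 TPM. Neither *Psmd7* nor *Psmd13* passed the threshold between DKO and NTC cells with IFNγ (0.038 and 0.023).

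Leaving out NTC untreated replicate 3 or DKO untreated replicate 3 cut the members called without IFNγ from 11 to 7. The share called over all tested genes went from 36.4% to 30.1% and 29.9%. The 6 members that were called in all 19 alternatives without IFNγ were *Psmc3*, *Psmd8*, *Psmb4*, *Psmf1*, *Psmg2* and *Psmd12*. With IFNγ, the call of *Psmd12* was lost in 8 of 19 alternatives, the replicate block (limma adjusted p = 0.0637) and the fit on the 6 libraries compared among them, and that of *Psmd5* in 5. Without IFNγ, the calls of *Psmd13*, *Psmd5* and *Psmd7* were lost in 5, 4 and 3.

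Many members were lower in DKO than in NTC cells with IFNγ and not called without it. As no member passed the interaction test, these calls do not show that the difference depended on IFNγ. This set held *Psma1*, *Psma5* and *Psma6* of the alpha ring, *Psmb1*, the ATPases *Psmc1*, *Psmc2* and *Psmc6*, the base subunit *Psmd2* and the chaperone *Psmd10*. *Psma5* stood at 243, 255 and 247 TPM in treated NTC and 213, 206 and 219 TPM in treated DKO cells (-0.22 ± 0.036, limma adjusted p = 2.70e-04). Without IFNγ its DKO values were 212, 211 and 217 TPM (-0.046 ± 0.036, 0.345). *Psmc1*, which also docks into the alpha ring, stood at 290.3, 299.6 and 294 TPM in treated NTC and 257, 254 and 267 TPM in treated DKO cells (-0.18 ± 0.033, 6.31e-04). Its untreated values were 276, 273 and 272 TPM in NTC cells and, in DKO, 262, 257 and 263 TPM (-0.070, 0.114). *Psmc6* stood at 156, 172 and 168 TPM without IFNγ and at 169.7, 156 and 184 TPM with it in DKO cells (-0.15 ± 0.063 and -0.33 ± 0.063 from NTC, 0.0849 and 9.20e-04). *Psmd10* stood at 32.6, 34.7 and 31.4 TPM and 34.7, 29.1 and 32.0 TPM (-0.10 ± 0.065 and -0.36 ± 0.065, 0.244 and 7.17e-04). In these 4 genes every treated DKO library lay below every treated NTC library. Untreated DKO libraries also lay below all untreated NTC libraries for *Psma5*, *Psmc1* and *Psmd2*. They lay above them for *Psma1* and overlapped for the rest of this set.

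*Psmd2* stood at 241, 245 and 248 TPM without IFNγ and at 255, 247 and 252 TPM with it in DKO cells, and with IFNγ was -0.13 ± 0.033 from NTC (limma adjusted p = 0.00534). The remaining differences with IFNγ were -0.16 for *Psma1* (0.00549), -0.19 for *Psma6* (0.00693), -0.14 for *Psmb1* (0.0169) and -0.12 for *Psmc2* (0.0333). All 5 calls were lost when each library was scaled to the same total, those of *Psma1*, *Psma6* and *Psmc2* also with the GC trend removed, under which the alpha ring median went from -0.16 to -0.010. In contrast, *Psmd3*, a scaffold subunit of the lid, was higher in DKO cells with IFNγ. It stood at 139.7, 148 and 141 TPM in untreated NTC, 159, 146 and 156 TPM in untreated DKO, 129.6, 131 and 131 TPM in treated NTC and 156, 166 and 146 TPM in treated DKO cells (0.10 ± 0.050 and 0.25 ± 0.050, 0.118 and 0.00125). Treated NTC libraries were the lowest of the 4 conditions. Comparisons of DKO and NTC cells with IFNγ share the treated libraries with the responses above, so their values are not independent of them.

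**Figure D4:**
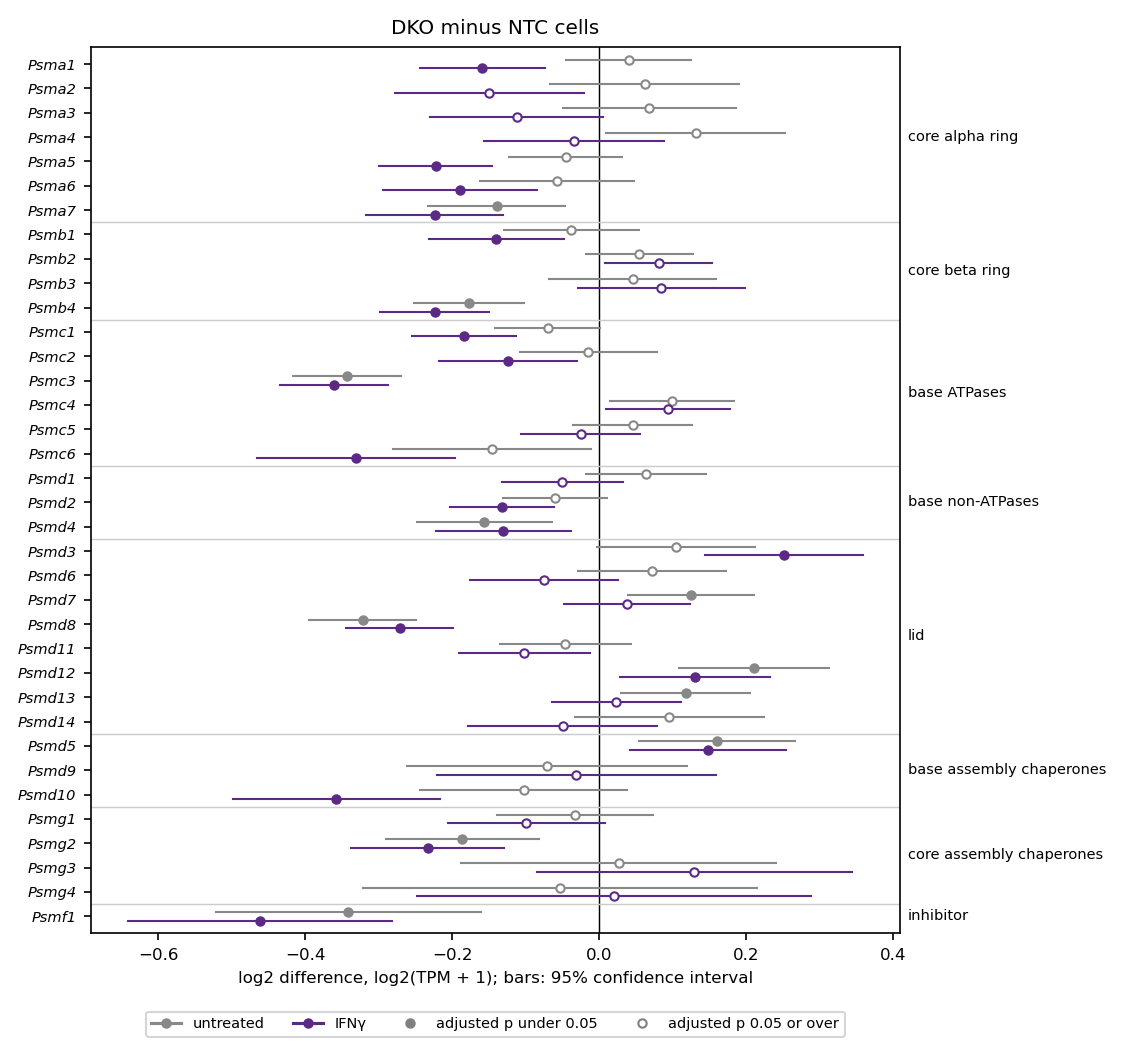
Log2 difference of DKO and NTC cells for each of the 36 genes, without IFNγ (gray) and with it (purple), with 95% confidence intervals and filled points where the limma adjusted p is under 0.05. *Psmc3*, *Psmd8* and *Psmf1* lie farthest to the left in untreated cells, and 16 filled points lie to the left of 0 with IFNγ.

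**Figure D5:**
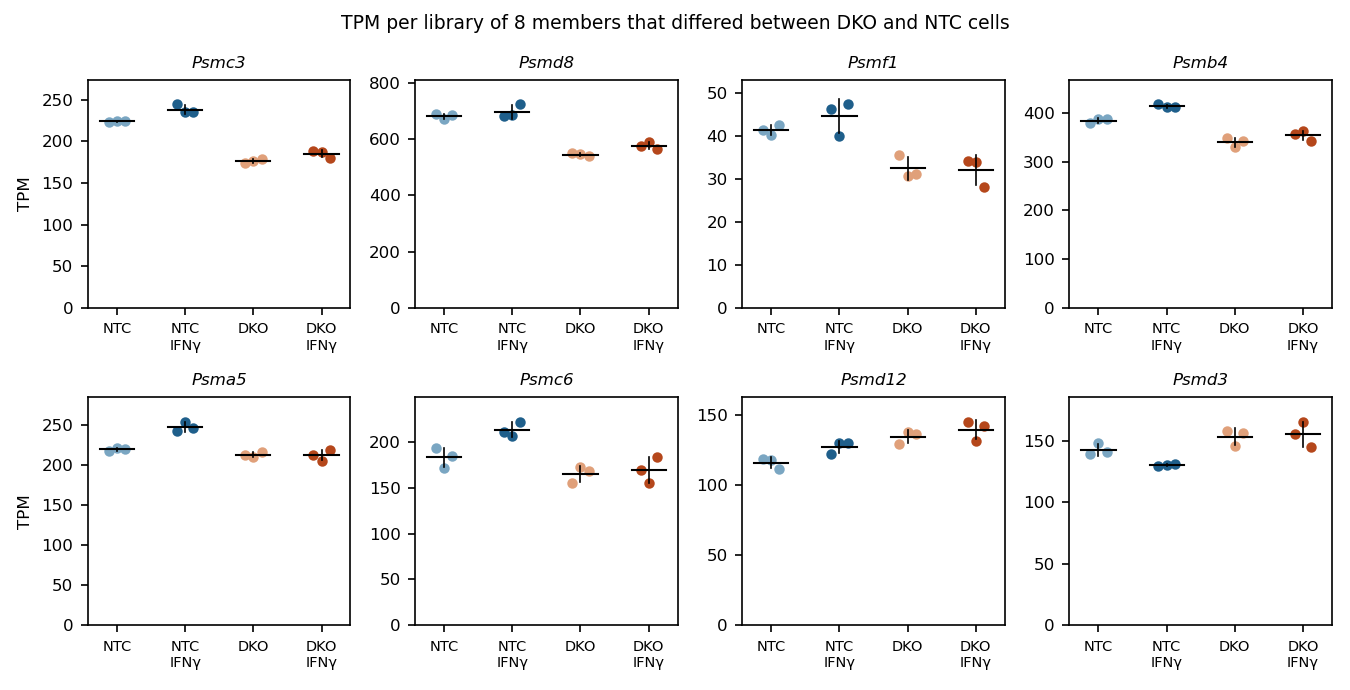
TPM of *Psmc3*, *Psmd8*, *Psmf1*, *Psmb4*, *Psma5*, *Psmc6*, *Psmd12* and *Psmd3* in 12 libraries, with 1 point per library, a line at the mean and a bar of 1 SD over 3 libraries; each vertical axis starts at 0. *Psmc3* lies at 174 to 188 TPM in DKO and 223 to 245 TPM in NTC libraries.

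Other genes of the proteasome system were taken from lists of its parts and partners, of which 29 passed the filter. In NTC cells 14 rose with IFNγ and 1 fell (7.31% and 4.78% of all tested genes), and in DKO cells 5 rose and 0 fell by limma (0.677% and 0.103%). By the interaction term, the response was called different between DKO and NTC cells for 1 of the 29, *Psmb9* (-1.09 ± 0.16, adjusted p = 0.0256). Of all tested genes, 0.0343% were called. The *Psmb9* call depended on single libraries. Over all tested genes, 0 were called without NTC untreated replicate 1, 2 or 3. The same held without DKO untreated replicate 2 or 3, and without DKO IFNγ replicate 1. DKO cells had 8 of the 29 higher and 4 lower than NTC cells without IFNγ, where 17.0% and 19.4% of all tested genes were, and 4 higher and 12 lower with it, where 19.5% and 23.9% were. The catalytic core subunits *Psmb5*, *Psmb6* and *Psmb7*, which the inducible subunits replace in the immunoproteasome, had unlike values. *Psmb7* rose with IFNγ in NTC cells, from 288, 278 and 286 TPM to 313, 333 and 339.6 TPM (0.21 ± 0.038, adjusted p = 0.00676). *Psmb5* and *Psmb6* had differences of -0.070 and -0.071 that missed the threshold. *Pomp*, the chaperone that completes core assembly, stood at 243, 278 and 271 TPM without IFNγ and at 314, 326 and 334 TPM with it in NTC cells (0.30 ± 0.052, 0.00506). In DKO cells its difference with IFNγ was 0.076 (0.692). For scale, the inducible *Psmb10* had a difference of 2.43 ± 0.070 in NTC and 2.05 ± 0.070 in DKO cells, where the largest among the members were 0.27 and 0.12. All 5 inducible genes rose in both cell types, and none of the 6 untreated libraries held *Psmb8* above 0. The tissue-restricted core subunit *Psma8* was listed at 0 throughout, and *Psmb11* in 11 of 12 libraries.

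*Nfe2l1* encodes NRF1, the transcription factor known for raising proteasome genes when the proteasome is inhibited. It stood at 135, 122 and 125 TPM in untreated NTC, 87.9, 84.1 and 84.1 TPM in untreated DKO, 123, 124 and 131 TPM in treated NTC and 89.7, 93.6 and 86.9 TPM in treated DKO cells. DKO libraries lay below all NTC libraries (-0.57 ± 0.047 and -0.48 ± 0.047, limma adjusted p = 1.28e-06 and 5.04e-06). *Ngly1*, the glycanase that takes glycans off NRF1, was lower in DKO cells in both states (-0.25 and -0.23, 0.00843 and 0.0127). *Akirin2*, which carries proteasomes into the nucleus, was lower with IFNγ (-0.25, 0.0124). *Vcp*, the segregase that extracts NRF1 from the membrane, was higher in both states (0.19 and 0.16, 7.28e-04 and 0.00245). Whether the NRF1 axis bears on the members was not tested.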

How the data were processed

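RNA-seq was done on 12 libraries of B16-F10 Cas9 cells, 3 per condition, grouped by GEO's labels. Per the study's methods, poly(A)-selected, unstranded libraries were sequenced as paired 50 bp reads, about 40 M per sample. RSEM 1.2.4, from the submitters' processing notes, ran with an annotation built in part on Ensembl 71, and GRCm38 was the genome. Per the file's values the authors deposited TPM, under a name that says counts. A scaling between libraries is not given in the sources used here, and TPM are relative, so that a shift in a few abundant genes moves all others. Reads shared by pseudogenes or overlapping genes were assigned by the authors' estimate. The authors' own comparisons were not used.

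A gene was kept where 3 or more libraries reached 1 TPM (11663 of 23022). Values of log2(TPM + 1) were fitted with limma 3.58.1 in R 4.3.3, with 1 mean per condition over all 12 libraries and a variance prior with a trend in mean level, and 5 contrasts were tested two-sided, with Benjamini-Hochberg adjustment over all tested genes and a threshold of 0.05. A log2 difference on this scale understates the change of low genes. The fit was tested on simulated data. Python 3.11.15 with pandas 2.3.3, numpy 2.4.6 and matplotlib 3.10.9 made tables and figures. Positions, GC content and lengths came from GENCODE M21, which held 22251 of the listed genes, and promoters from RefSeq.

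Members, companion lists, motifs and alternatives were chosen with earlier results of these data known. Any member could be named. Values per library are given for up to 12 members per comparison past the threshold, in order of adjusted p, and for the highest and lowest member of each class. Alternatives were a pseudocount of 0.1, no filter, the replicate number as a block, only the 6 libraries compared, totals made equal between libraries, median-ratio scaling, a fit without the GC and length trend (a spline of 4 degrees of freedom), and leaving out each library.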

Additional observations from a re-analysis of the deposited data

How the results depend on the processing

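Counts of members called depended on scaling, base composition and single libraries. In NTC cells with IFNγ, 14 members were called, 8 with totals made equal between libraries, 9 with median-ratio scaling, 8 with the GC and length trend removed, and 2 to 19 when 1 library was left out. The shares over all tested genes, in the same order, were 12.1%, 9.98%, 10.6%, 5.17%, and 2.74% to 17.3%. Between untreated DKO and NTC cells, 11 members were called, 18 with the GC trend removed, and 7 to 12 when 1 library was left out. Of all tested genes, 36.4%, 42.1% and 29.4% to 38.4% were called in these settings. The median over members between untreated DKO and NTC cells went from -0.024 to 0.026 with the same total, and that with IFNγ from -0.11 to -0.021 with the same total and -0.011 with the GC trend removed. Over all tested genes the median went from -0.0055 to 0.039 with the same total. With IFNγ it went from -0.013 to 0.065 with the same total and to -0.0069 with the GC trend removed. As totals were lower in DKO libraries, scaling to the same total raises DKO relative to NTC values for all genes, not only members. The cause of the lower totals and of the GC trend was not tested. *Psmc2* between DKO and NTC cells with IFNγ turned from -0.12 to 0.0092 (limma adjusted p = 0.844) with the GC trend removed. Of 44 member calls, 17 were kept in every alternative, 27 were lost in at least 1, and 1 of these also turned direction. In DKO cells with IFNγ and for the difference between responses, 0 members were called in any alternative run; the latter could not be fitted on 6 libraries. With the replicate number as a block, 12 members were called in NTC cells with IFNγ, 3 higher and 7 lower between untreated DKO and NTC cells, and 2 higher and 16 lower with IFNγ. In these 3 comparisons 9.59%, 34.8% and 42.0% of all tested genes were called with the block. No pairing by replicate number was seen: deviations of the same number correlated between -0.18 and 0.18, over 0.1 in 4 of 18 pairs, against 9 of 36 pairs of other numbers. The labels do not say whether equal numbers share a culture or a batch, and a weak pairing would not show here. The depth of each library is unknown for TPM, so that 3 libraries per condition and the spread between them set the precision (median SD over members 0.050 on the log2 scale).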

Other observations

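Of 11 genes for activators and other proteins that bind the proteasome, 4 were higher and 1 lower in untreated DKO than NTC cells by limma (17.0% and 19.4% of all tested genes), and 1 was higher and 3 lower with IFNγ (19.5% and 23.9%). In untreated DKO cells, *Psme4*, an activator that caps the core, stood at 47.5, 46.3 and 48.0 TPM against 37.8, 36.1 and 36.1 TPM in NTC cells (0.36 ± 0.059, limma adjusted p = 3.90e-04), and with IFNγ the difference was 0.18 ± 0.059 (0.0223). The proteasome-bound deubiquitinases *Usp14* and *Uchl5* were higher as well, by 0.34 (0.00104) and 0.35 (0.00692), and with IFNγ both missed the threshold, with 0.14 (0.0992) and 0.17 (0.131). *Zfand5*, a proteasome activator, was lower, at 89.5, 94.5 and 98.6 TPM against 132, 113 and 111 TPM (-0.33 ± 0.069, 0.00242), and with IFNγ the difference was -0.52 ± 0.069 (6.08e-05). In NTC cells *Zfand5*, *Usp14* and *Psme4* rose with IFNγ, by 0.32, 0.26 and 0.30 on the log2 scale. *Adrm1*, a ubiquitin receptor of the base, was the 1 to fall among the 29 other genes of the proteasome system. It went from 111, 122 and 121 TPM to 103, 98.4 and 93.8 TPM (-0.25 ± 0.066, limma adjusted p = 0.0283).

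Of the 5 shuttle factors, which carry ubiquitin-tagged proteins to the proteasome, none was called with IFNγ in either cell type at the adjusted threshold of limma. Of all tested genes, 12.1% were called in NTC and 0.780% in DKO cells. At an unadjusted p of 0.05, 1 of the 5 passed in NTC cells and 0 in DKO cells, beside 31.8% and 9.59% of all tested genes. *Ubqln4* was higher in DKO cells without and with IFNγ (0.14 and 0.15 on the log2 scale, limma adjusted p = 0.0258 and 0.0210). With IFNγ, *Ubqln2* was also higher (0.34, 0.0129), and *Ubqln1* was lower (-0.12, 0.0248). Without IFNγ both missed the threshold (0.24 and -0.10, 0.0729 and 0.0620).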
